A study of Danio rerio with 20 samples.

Results

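Loss of glyoxalase 1 alone was described from zebrafish larvae in which glo1 had been knocked out, set against wild type larvae. The comparison took every library labelled GLO1KO and every library labelled WT, 5 of each, which is 10 of the 20 libraries of the series, and every gene that passed a filter on low counts. All larvae, controls included, carried the Tg(fli1:EGFP) transgene, which drives green fluorescent protein from a promoter active in the endothelium. Knockouts were made with CRISPR/Cas9. The other 10 libraries came from larvae without aldh3a1, labelled ALDH3A1KO, and from larvae without both genes, labelled DKO, 5 of each. These are taken by their labels, since the aldh3a1 transcript was not analysed here. They entered the same fit, and the DKO to ALDH3A1KO pair gave loss of glo1 on another background with no library in common with the first pair. RNA came from whole larvae. Neither the larval age, nor the number of larvae per library, nor a separate clutch per library is stated in the labels, so the tests weigh differences against a spread between libraries that could be technical. In whole larvae, fewer cells of a type and less RNA per cell cannot be told apart.

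Methylglyoxal is a reactive dicarbonyl formed mainly as a by-product of glycolysis, and it modifies arginine residues of proteins and also DNA. Glyoxalase 1 converts the adduct of methylglyoxal and glutathione, and glyoxalase 2, encoded by hagh, then releases lactate and returns the glutathione. Aldehyde dehydrogenases, aldo-keto reductases and the repair enzyme Park7 act on the same compounds or their adducts, and fructosamine 3-kinases act on sugar adducts of proteins. The series title names a methylglyoxal adduct, small vessels, glucose metabolism and the proteasome as its questions, and these pathways are taken up below after the tissues.

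The targeted transcript was checked first. Reads of glo1 were measured at 66.3, 62.2, 63.6, 71.4 and 69.6 CPM (counts scaled to a common library size with TMM factors) in wild type replicates 1 to 5. In glo1 knockout replicates 1 to 5 they were measured at 4.22, 3.62, 3.56, 3.61 and 3.28 CPM. The mean fell from 66.6 ± 3.88 to 3.66 ± 0.344 CPM (SD, n = 5 each), a log2 fold change of -4.19 (SE 0.09, edgeR quasi-likelihood test, Benjamini-Hochberg adjusted p = 7.76e-22). The groups did not overlap, and every library matched its label.

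Each of the 10 libraries held between 35958540 and 37190519 counts. Of 33 cell type markers looked for, 28 had a tested gene, and the lowest of their means was 1.67 CPM in wild type and 1.45 CPM in the glo1 knockout. Kidney, thymus and pineal had no marker among these. Principal components were computed from only the genes that varied most across these 10 libraries, which can raise the share of the first. The first component held 45% of the variance of these genes. It separated the genotypes, with wild type from -37.2 to -15.2 and the knockout from 18.7 to 31.6. No library left its group, and replicate libraries differed by more than sampling noise, so none was a copy of another. Wild type was not uniform. On the second component, with 10.1% of the variance, wild type replicates 2 and 3 lay at -18.7 and -22.5, and replicates 1, 4 and 5 between 10.6 and 12.5. The knockout libraries ranged from -7.73 to 13.2. The cause of this split within wild type was not tested.

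Of 22234 genes tested, 7286 passed the test at an adjusted p of 0.05, which is 32.8%. Of these, 3253 were higher in the glo1 knockout (14.6% of genes tested) and 4033 were lower (18.1%). Most changes were small. A log2 change of at least 1 was found for 236 higher genes (1.06%) and 746 lower genes (3.36%). The libraries of both groups did not overlap for 2170 genes that were higher (9.76%) and 2780 that were lower (12.5%). The median log2 fold change of all genes was -0.01. Genes were grouped into 63 lists of tissue, cell type and pathway genes. Counts of list members called in this pair are to be read against 14.6% higher and 18.1% lower over all genes. In 20 lists the median was at least 0.2 away from 0, with 9 higher and 11 lower. In 18 of the 20 the mean levels of the 5 and 5 libraries did not overlap. The 20 were chosen by their median in these same libraries, so this separation follows in part from the choice.

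**Figure D1:**
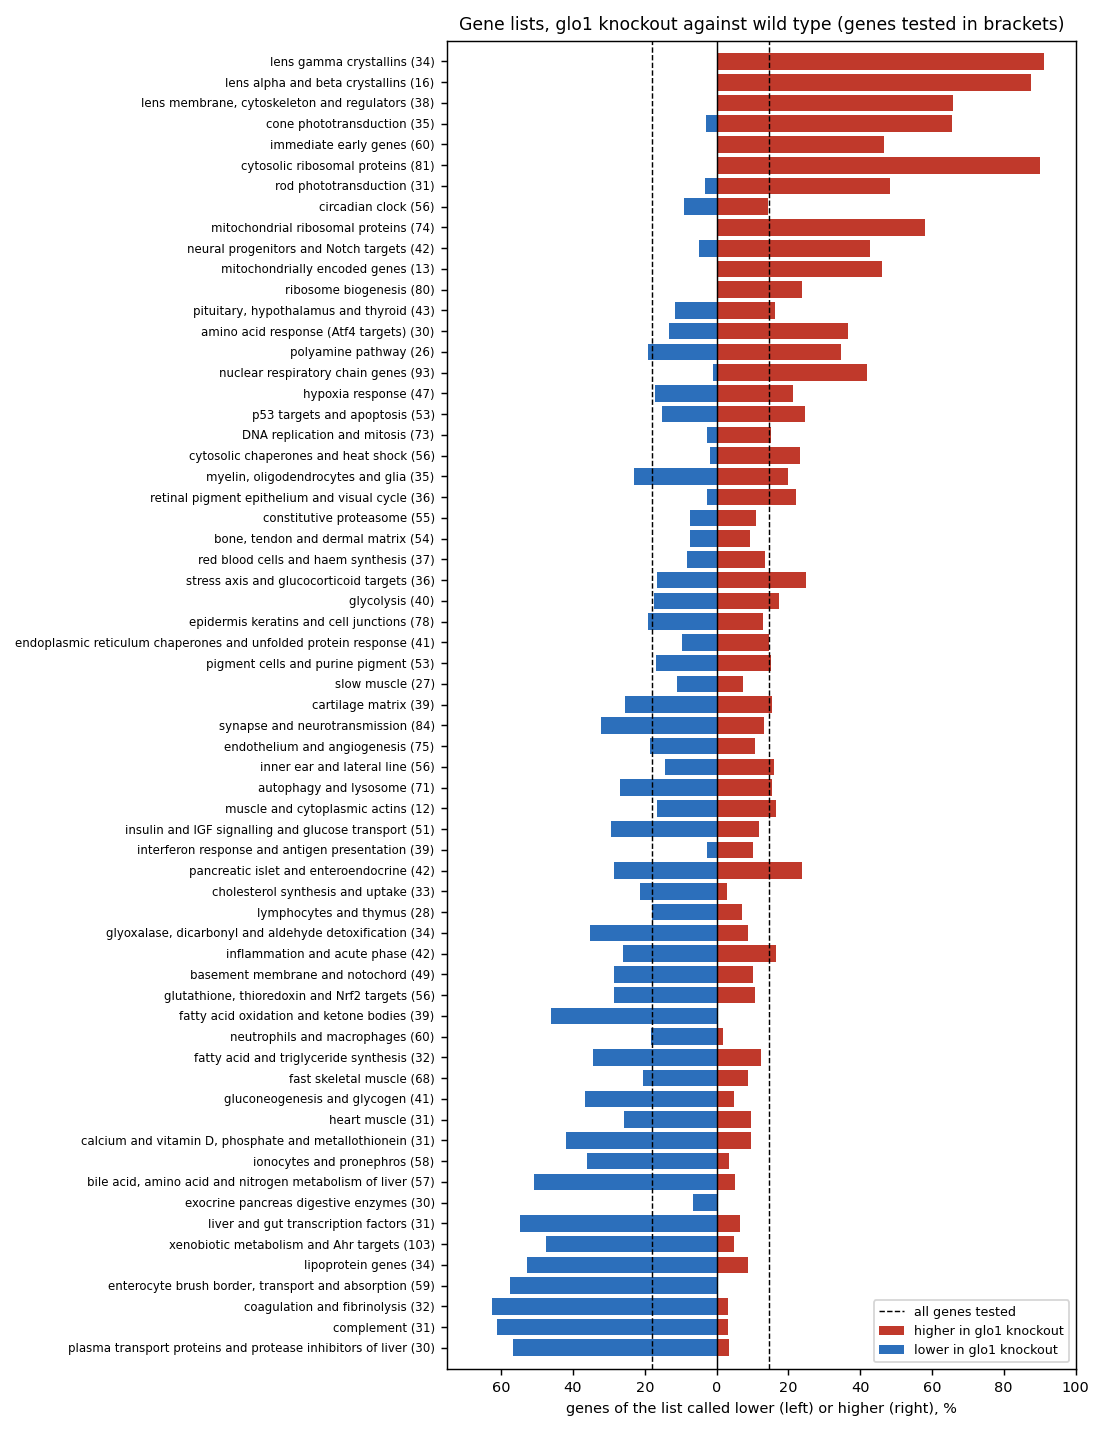
Share of each of 63 gene lists called higher (right, red) or lower (left, blue) in the glo1 knockout against wild type, in percent of the genes tested, which stand in brackets; lists are ordered by their median log2 fold change and dashed lines mark the shares over all genes tested (14.6% higher and 18.1% lower). Lens, cone and ribosomal protein lists stand at the top, and liver, gut and plasma protein lists at the bottom.

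Lens genes rose together. Over its 3 lists, 70 of 88 genes tested rose and none fell, against 14.6% of all genes rising, and 44 of them rose by at least 1 on the log2 scale. Lens genes thus made up 44 of the 236 larger rises. Their summed level lay between 8642 and 17340 CPM in the 5 wild type libraries and between 22131 and 30272 CPM in the 5 glo1 knockout libraries, with no overlap.

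Crystallins, the densely packed proteins that give the lens its refraction, led this group. Of 16 alpha and beta crystallin genes tested, 14 rose (87.5%), and the median log2 fold change was 1.1. The alpha crystallin cryaa, a small heat shock protein of the lens, was measured at 29.4, 40.5, 42.99, 21.5 and 32.1 CPM in wild type and at 62.2, 83.3, 77.9, 88.4 and 47.8 CPM in the glo1 knockout. It rose by 1.11 (SE 0.20, adjusted p = 0.000592), and each knockout library lay above each wild type library. Among the beta crystallins, cryba1 was measured at 2.54, 3.75, 4.97, 2.34 and 2.80 CPM in wild type and at 7.003, 8.37, 8.61, 11.3 and 6.13 CPM in the knockout. It rose by 1.34 (SE 0.20, adjusted p = 6.36e-05), again with no overlap, which a rule that named it required. Other members rose by like amounts, for example cryba1l2 (log2 fold change 1.24), crybb1l1 (1.19), crybb1l3 (1.08), cryba4 (1.09) and crybb1l2 (0.99). The 2 members that were not called, crybb3 and one copy of cryab, were below 1 CPM.

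Gamma crystallins, in fish a large family of tandem genes, behaved alike. Of 34 tested, 31 rose (91.2%), each with no overlap of the groups, and the median was 1.12. Of all genes, 14.6% rose and 9.76% were higher with no overlap. The share of all counts in gamma crystallins went from 0.677% in wild type to 1.35% in the knockout. The gene crygmx was measured at 159.9, 204, 216, 134 and 162 CPM in wild type and 306, 355, 356, 376 and 305 CPM in the knockout, a rise of 0.95 (SE 0.11, adjusted p = 5.47e-06). The gene crygmxl1 rose most, by 1.70 (SE 0.21, adjusted p = 6.12e-06), from a mean of 1.68 ± 0.504 to 5.44 ± 0.910 CPM. Copies of this family are near-identical, so values of single members such as crygm2d7 (log2 fold change 1.09), crygm2d9 (1.29), crygm2d17 (1.29) and crygm2e (1.43) are uncertain where reads could be shared. The 3 members that were not called, crygm3, crygm4 and crygm2a, were at 0.5 CPM or less in wild type.

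Genes of the lens fibre membrane, its cytoskeleton and its regulators rose as well, 25 of 38 with a median of 0.64. The galectin-related lens protein gene grifin was measured at 11.3, 12.5, 14.97, 9.39 and 14.8 CPM in wild type and 22.7, 23.97, 26.8, 26.8 and 22.3 CPM in the knockout, and rose by 0.96 (SE 0.11, adjusted p = 2.02e-06). The fibre membrane gene lim2.1 rose by 0.98 (SE 0.14, adjusted p = 5.56e-05) and the lens connexin gene gja3 by 0.85 (adjusted p = 0.00375). Both copies of mip, the water channel of fibre cells, rose, mip (ENSDARG00000037285) by 0.69 and mip (ENSDARG00000013963) by 0.65. Beaded filament gene bfsp2 rose by 1.08, while bfsp1 gave 1.1 without passing the test (adjusted p = 0.109). Regulators moved less. The lens transcription factor gene pitx3 rose by 0.46 (SE 0.08), and foxe3, at about 1 CPM, gave 0.57 (adjusted p = 0.095).

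**Figure D2:**
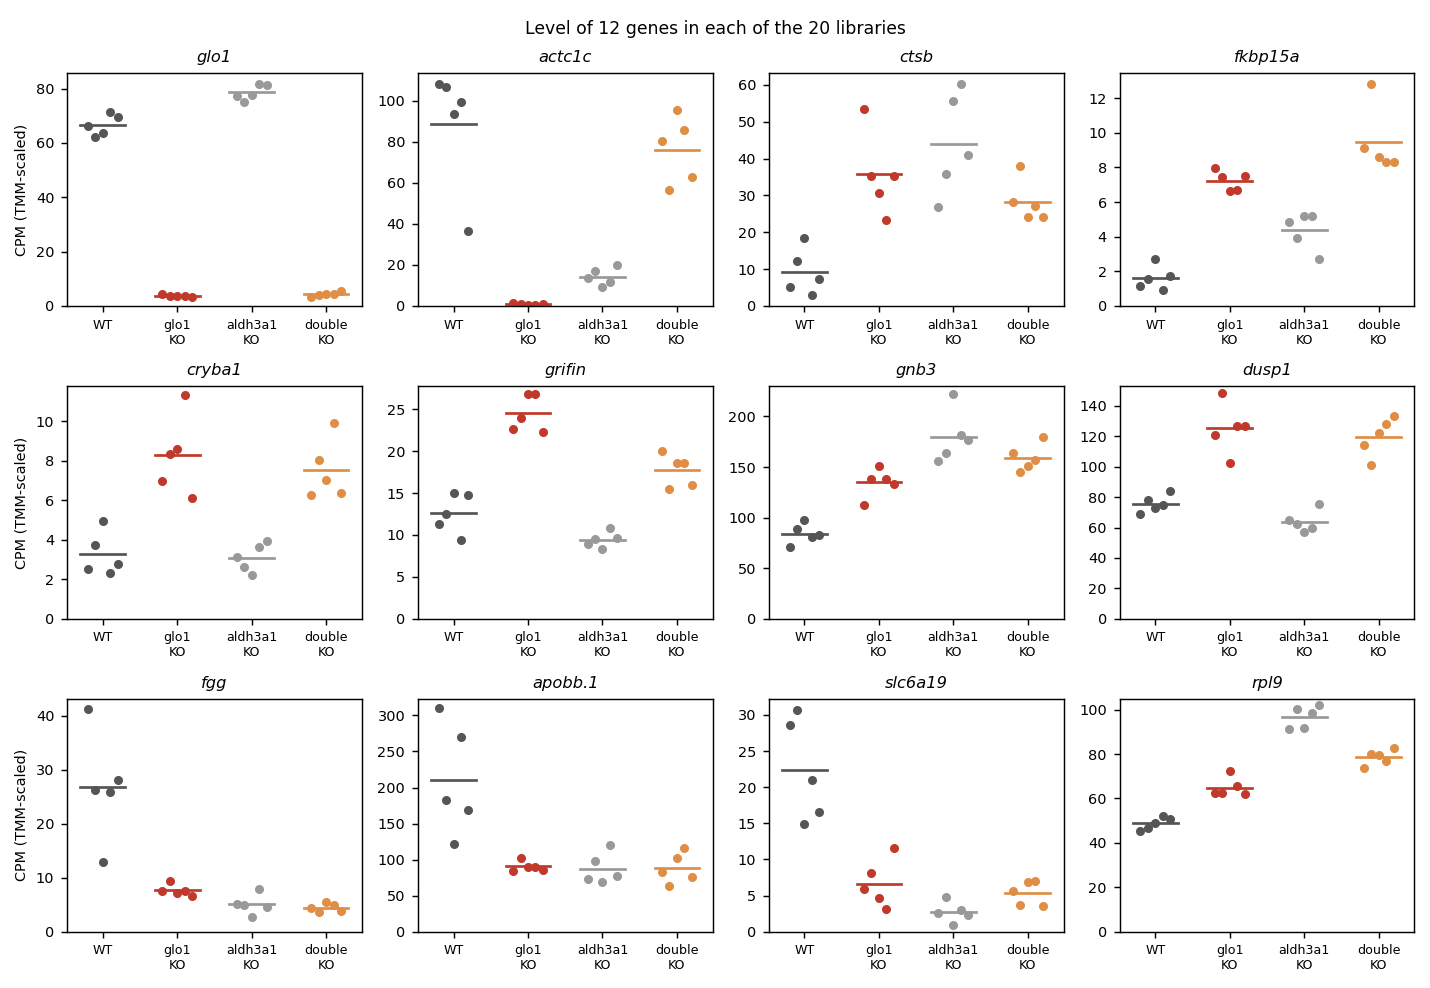
CPM (vertical axis from 0) of 12 genes in each of the 20 libraries, with points for libraries in the order of their replicate numbers and bars for group means (WT wild type, KO knockout). In glo1, actc1c, fgg, apobb.1 and slc6a19 the glo1 knockout libraries lie below all wild type libraries, and in the other 7 genes above them. For actc1c, ctsb, fkbp15a, cryba1, fgg and slc6a19 a rule that named them required this.

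Photoreceptor genes rose by smaller amounts. Of 35 cone genes tested, 23 rose and 1 fell, against 14.6% and 18.1% of all genes, and the median was 0.45. Of 31 rod genes, 15 rose and 1 fell, and the median was 0.26. In cones, gnb3, a subunit of the cone transducin, was measured at 70.5, 88.4, 97.9, 80.9 and 82.9 CPM in wild type and 113, 139, 151, 138 and 134 CPM in the knockout. It rose by 0.68 (SE 0.09, adjusted p = 3.18e-05). The cone phosphodiesterase gene pde6c rose by 0.71, the retinal guanylate cyclase gene gucy2d by 0.70 and the cone transducin gene gnat2 by 0.40. Among cone opsins, opn1sw2 rose by 0.40 and opn1mw1 by 0.23, while the red-sensitive opn1lw2 gave 0.10 (adjusted p = 0.38). The photoreceptor transcription factor gene crx (ENSDARG00000011989) rose from 97.5 ± 5.75 to 143 ± 11.6 CPM, by 0.55 (SE 0.08, adjusted p = 3.24e-05), and the retinal homeobox gene rx1 by 0.54 (SE 0.08).

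In rods, the disc rim protein gene prph2 (ENSDARG00000038018) was measured at 203, 229, 236, 199 and 249.5 CPM in wild type and 294, 314, 357, 336 and 325 CPM in the knockout, a rise of 0.54 (SE 0.07, adjusted p = 1.59e-05). The rod arrestin gene saga rose by 0.74 (SE 0.13) and rhodopsin itself, rho (ENSDARG00000002193), by 0.33 (adjusted p = 0.00319). Of 36 genes of the pigment epithelium and the visual cycle, which regenerates the light-sensing retinaldehyde, 8 rose (22.2%) and 1 fell (2.78%). Of all genes 14.6% rose and 18.1% fell. The median of the 36 was 0.06, too near 0 to carry a direction. The retinaldehyde-binding protein gene rlbp1a rose from 51.1 ± 3.90 to 82.1 ± 6.89 CPM, by 0.68 (SE 0.06, adjusted p = 6.92e-08).

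Retinal and neural progenitor genes, among them Notch ligands and their targets, had 18 of 42 members higher and 2 lower, and the median was 0.20. The Notch target her4.1 was measured at 3.35, 3.47, 4.03, 3.56 and 4.68 CPM in wild type and 7.003, 8.11, 6.84, 7.58 and 5.22 CPM in the knockout, and rose by 0.86 (SE 0.14, adjusted p = 8e-05). The retinal ganglion cell factor gene atoh7 rose by 0.59 (adjusted p = 0.00118) and the progenitor factor gene sox2 by 0.27 (adjusted p = 0.00101). Of 73 DNA replication and mitosis genes, 11 rose (15.1%, near the 14.6% of all genes) and 2 fell. The smallest adjusted p was that of the replication helicase subunit gene gins4 (0.75, SE 0.11, adjusted p = 3.34e-05).

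Genes for the ribosome and the mitochondrion rose by small and even amounts. Of 81 cytosolic ribosomal protein genes, 73 rose (90.1%), and the median was 0.32, and their share of counts went from 8.37% to 9.64%. The gene rpl9 was measured at 45.5, 46.7, 48.9, 52.2 and 50.6 CPM in wild type and 62.3, 62.5, 72.6, 65.4 and 61.9 CPM in the knockout, a rise of 0.41 (SE 0.06, adjusted p = 1.59e-05). The gene rpl39 rose by 0.51 (SE 0.07) and rpl22 by 0.42 (SE 0.06). Mitochondrial ribosomal protein genes rose in 43 of 74 cases with a median of 0.20, with the smallest adjusted p for mrps26 (0.39, SE 0.06, adjusted p = 0.000108), and with mrpl35 up by 0.49 and mrpl52 by 0.49. Nuclear genes of the respiratory chain had 39 of 93 members higher and 1 lower, and the median was 0.14. The ATP synthase subunit gene atp5mea rose most among them, by 0.63 (SE 0.07, adjusted p = 1.36e-06). Of 13 genes encoded in mitochondrial DNA, 6 rose, among them mt-atp6 (0.44, SE 0.06). These genes went from 2.88% to 3.27% of counts.

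Immediate early genes, which respond within minutes to growth factors, stress and activity, had 28 of 60 members higher and none lower, and the median was 0.34. The phosphatase gene dusp1, which switches off stress kinases, was measured at 68.6, 78.4, 72.6, 75.1 and 83.9 CPM in wild type and 121, 148, 103, 127 and 127 CPM in the knockout. It rose by 0.73 (SE 0.09, adjusted p = 7.79e-06), with each knockout library above each wild type library. The growth arrest gene gadd45b (ENSDARG00000027744) was measured at 47.7, 57.98, 52.8, 55.99 and 70.6 CPM and 91.7, 124, 94.6, 114 and 103 CPM in the same order, and rose by 0.89 (SE 0.13, adjusted p = 7.03e-05). The stress kinase phosphatase gene dusp2 rose by 0.63 (SE 0.09). The transcription factor genes fos (0.78, adjusted p = 0.00691), nr4a1 (0.63, adjusted p = 0.0254), nr4a3 (1.0, adjusted p = 0.00551) and klf2a (0.64, adjusted p = 0.00437) rose too. The much studied egr1 gave 0.15 (adjusted p = 0.449) and jun 0.23 (adjusted p = 0.0991). In other lists, the survival gene mcl1b rose from 63.5 ± 5.47 to 114 ± 9.05 CPM, by 0.84 (SE 0.09, adjusted p = 2.86e-06). The inhibitor of NF-kappa-B signalling nfkbiab rose by 0.50 (SE 0.09) and the mTOR inhibitor gene ddit4 by 0.73 (SE 0.09, adjusted p = 3.63e-06).

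Among 56 cytosolic chaperone genes, 13 rose (23.2%) and 1 fell (1.79%), against 14.6% and 18.1% of all genes, and the median was 0.07. The heat-inducible members, named here after their values were seen, stood out by size. The gene hsp70l was measured at 5.08, 6.25, 8.45, 7.83 and 11.1 CPM in wild type and 18.98, 30.1, 12.2, 42.5 and 10.1 CPM in the knockout. It rose by 1.55 (SE 0.49, adjusted p = 0.0237), with overlapping groups and a wide spread within the knockout. The genes hsp70.1, hsp70.3 and hspb9 rose by 1.21 (adjusted p = 0.00902), 1.01 (adjusted p = 0.0115) and 1.72 (adjusted p = 7.01e-05). The abundant constitutive hsp90ab1 gave -0.07 (adjusted p = 0.345). Chaperones of the endoplasmic reticulum and the unfolded protein response did not move as a group, with 6 of 41 higher (14.6%), 4 lower (9.76%) and a median of 0.00. The stress phosphatase subunit gene ppp1r15a in that list rose by 0.49 (SE 0.08, adjusted p = 8.71e-05).

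The circadian list, which also holds photoreceptor and pineal genes, had a median of 0.21 with 8 of 56 higher and 5 lower. That is 14.3% against 14.6% of all genes and 8.93% against 18.1%. Several of its genes with large changes did not pass the test, such as the clock repressor gene nr1d1 (1.07, adjusted p = 0.0793) and per3 (0.57, adjusted p = 0.107). The value of nr1d1 ranged widely within groups, with 41.7, 174, 213, 27.4 and 118 CPM in wild type and 192, 200.2, 343, 212 and 259 CPM in the knockout. No label gives the time of day of sampling. The clock repressor genes bhlhe40 (0.68, adjusted p = 0.0114) and bhlhe41 (0.83, adjusted p = 0.0398) were called, and so was the pineal opsin gene parapinopsinb, higher by 0.85 (SE 0.14). Both copies of the photoreceptor factor gene crx also count among the rises of this list. They are crx (ENSDARG00000011989) with 0.55, given above among the cone genes, and crx (ENSDARG00000043483) with 0.46.

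**Figure D3:**
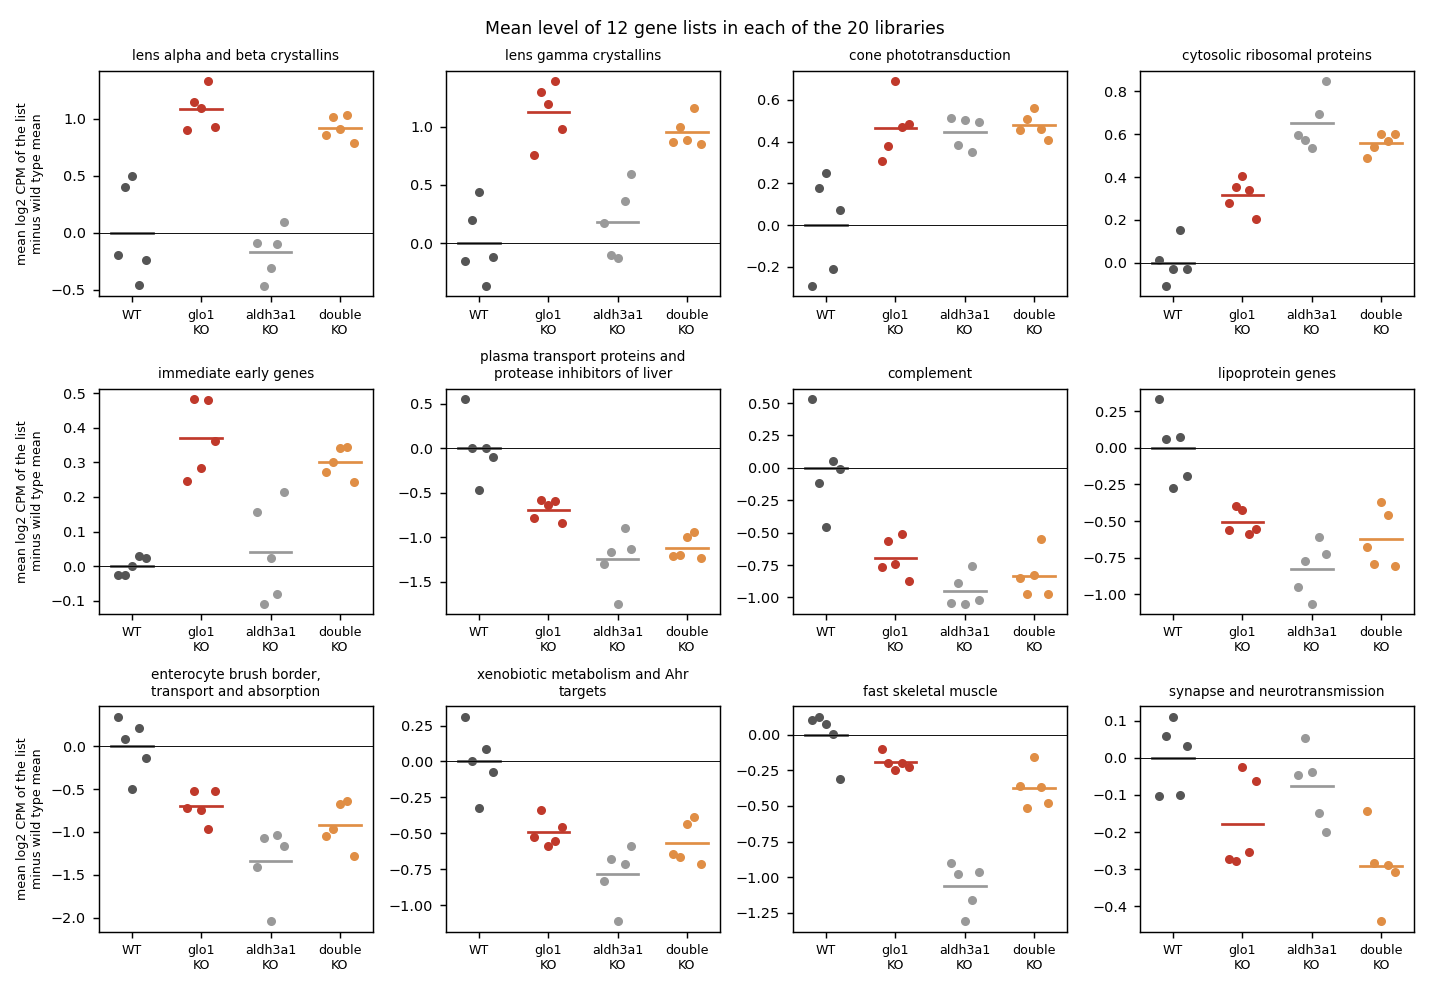
Mean log2 CPM of 12 gene lists in each of the 20 libraries minus the wild type mean (vertical axis; points are libraries in the order of their replicate numbers, bars are group means; WT wild type, KO knockout). Both crystallin lists are high in the genotypes without glo1 and near 0 in the others, while liver, gut and xenobiotic lists are lower than wild type in all 3 knockout genotypes.

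Many lower genes stood in the lists of liver secretion and metabolism, which also hold some genes of other tissues. Over 5 lists of secreted plasma proteins, complement, coagulation factors, lipoproteins and metabolic enzymes, 103 of 184 genes fell and 9 rose, against 18.1% and 14.6% of all genes, and the median was -0.65. Of these 103, 49 fell by at least 1, among 746 such falls over all genes. The summed level of the 184 genes lay between 6813 and 11864 CPM in wild type and between 5886 and 6501 CPM in the glo1 knockout. The groups did not overlap in this sum, and wild type libraries were much more spread than knockout libraries. Wild type replicate 1 was the highest wild type library and wild type replicate 3 the lowest for serpina1l, cfh, fgg, apobb.1 and uroc1, all given next.

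Plasma transport proteins and protease inhibitors had 17 of 30 members lower and 1 higher, and the median was -0.83. The antitrypsin-like protease inhibitor gene serpina1l was measured at 108, 70.01, 30.4, 65.9 and 70.3 CPM in wild type and 27.3, 22.8, 19.7, 25.3 and 17.5 CPM in the knockout, and fell by 1.61 (SE 0.24, adjusted p = 0.000159). The iron carrier gene tfa, coding for transferrin, fell by 1.47 (SE 0.31, adjusted p = 0.00185), from 418 ± 254 to 151 ± 40.7 CPM. The inhibitor genes itih3b.1 and a2ml fell by 2.39 (SE 0.40) and 1.02 (SE 0.18). The member that rose was the retinol-binding rbp4l (1.03, adjusted p = 0.00056), and the main retinol carrier gene rbp4 gave 0.18 (adjusted p = 0.289).

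Complement genes, the plasma cascade of innate immunity, had 19 of 31 members lower and 1 higher, and the median was -0.81. The regulator gene cfh was measured at 12.2, 9.62, 4.50, 7.18 and 6.94 CPM in wild type and 2.70, 2.58, 1.77, 3.02 and 3.09 CPM in the knockout, and fell by 1.62 (SE 0.22, adjusted p = 1.86e-05). Copies of the central component followed, c3b.1 by 1.46 (SE 0.21, adjusted p = 3.08e-05) and c3a.1 by 1.23 (SE 0.18, adjusted p = 6.78e-05), and reads of these copies could be shared. The terminal components c5, c9 and c8a fell by 1.30, 0.86 and 0.81. The member that rose, c1r, was at 0.189 ± 0.0676 CPM in wild type.

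Coagulation and fibrinolysis genes had 20 of 32 members lower and 1 higher, and the median was -0.71. The fibrinogen gamma chain gene fgg was measured at 41.2, 26.3, 12.8, 25.9 and 28.2 CPM in wild type and 7.53, 9.35, 7.12, 7.55 and 6.62 CPM in the knockout. It fell by 1.82 (SE 0.25, adjusted p = 7.51e-05), with no overlap, which a rule that named it required. The other fibrinogen chains fgb and fga fell by 1.03 and 0.71, the plasminogen gene plg by 1.23 (SE 0.17, adjusted p = 4.35e-05), the antiplasmin gene serpinf2b by 1.15 (SE 0.16) and the prothrombin gene f2 by 0.91. The tissue factor copy f3b, which is not a liver product, rose by 0.51 (adjusted p = 0.0306), and the endothelial vwf gave 0.20 (adjusted p = 0.512).

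Lipoprotein genes had 18 of 34 members lower and 3 higher, and the median was -0.53. The apolipoprotein B gene apobb.1, the scaffold of secreted lipoproteins, was measured at 311, 183, 121, 270.1 and 169 CPM in wild type and 83.9, 103, 90.2, 89.5 and 86.04 CPM in the knockout. It fell by 1.22 (SE 0.23, adjusted p = 0.000937). Its partner in lipoprotein assembly, mttp, fell by 0.82 (SE 0.17, adjusted p = 0.00121), apoa2 by 1.08 (SE 0.21, adjusted p = 0.000999) and apoa1b by 1.33 (adjusted p = 0.00174). Members with wider expression did not pass the test, such as apoeb (0.01, adjusted p = 0.96) and apoa1a (-0.15, adjusted p = 0.642). The lipase inhibitor gene angptl4 rose by 0.53 (adjusted p = 0.000347).

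Enzymes and transporters of bile acid, amino acid and nitrogen metabolism had 29 of 57 members lower and 3 higher, and the median was -0.39. The histidine breakdown enzyme gene uroc1 was measured at 10.1, 8.07, 5.02, 5.69 and 5.30 CPM in wild type and 2.20, 3.34, 2.42, 2.10 and 2.38 CPM in the knockout, and fell by 1.46 (SE 0.21, adjusted p = 4.04e-05). The gene cyp7a1, the rate-limiting enzyme of bile acid synthesis, fell by 1.25 (adjusted p = 0.0155), the bile salt pump gene abcb11 by 1.03 (SE 0.16, adjusted p = 6.49e-05) and the choline pathway enzyme gene dmgdh by 0.65 (SE 0.12). The liver fatty acid carrier gene fabp10a fell by 0.78 (adjusted p = 0.0224). The urea cycle gene otc rose by 0.87 (adjusted p = 9.31e-05).

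Transcription factors of liver and gut had 17 of 31 members lower and 2 higher, and the median was -0.47. The endoderm factor gene gata6 was measured at 9.53, 10.4, 6.67, 8.14 and 8.57 CPM in wild type and 4.81, 5.22, 4.08, 3.61 and 4.87 CPM in the knockout, and fell by 0.94 (SE 0.16, adjusted p = 0.000171). The gene hnf4a, a main regulator of hepatocyte genes, fell by 0.73 (adjusted p = 0.00294), onecut1 by 0.64 (SE 0.11, adjusted p = 0.00019) and the bile acid receptor gene nr1h4 by 0.74 (adjusted p = 0.0152). The factor gene creb3l3a fell by 2.38 (SE 0.48) from a mean under 1 CPM. The 2 that rose, cebpb (0.89, adjusted p = 0.00876) and cebpd (0.75, adjusted p = 0.00226), also respond to inflammatory signals.

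Intestinal genes fell without exception among those called. Of 59 genes of the enterocyte, the absorbing cell of the gut, 34 fell and none rose, and the median was -0.69. The amino acid transporter gene slc6a19 (ENSDARG00000091560) was measured at 28.6, 30.7, 14.8, 21.1 and 16.6 CPM in wild type and 5.95, 8.11, 4.62, 3.08 and 11.5 CPM in the knockout, and fell by 1.75 (SE 0.37, adjusted p = 0.00187). The brush border peptidase gene ace fell by 0.66 (SE 0.13, adjusted p = 0.000656), the water channel gene aqp8 by 0.81 (SE 0.16) and the retinol carrier gene rbp2 (ENSDARG00000093774) by 0.71 (SE 0.13). The cholesterol importer gene npc1l1 fell by 1.89 (adjusted p = 0.00402), the glucose transporter gene slc5a1 by 1.43 (adjusted p = 0.00134) and the fatty acid carrier gene fabp2 by 0.80 (adjusted p = 0.0445). The villus actin bundler gene vil1 fell by 0.61 (adjusted p = 0.0116).

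Digestive enzymes of the exocrine pancreas had a median of -0.43, but their libraries scattered and 2 of 30 passed the test. The chymotrypsinogen gene ctrb.2 was measured at 43.5, 19.9, 10.1, 18.9 and 11.9 CPM in wild type and 11.7, 11.96, 10.03, 6.46 and 3.91 CPM in the knockout, with a log2 fold change of -1.25 (SE 0.41, adjusted p = 0.0265). The amylase gene amy2al2 was measured at 15.9, 4.14, 3.22, 6.92 and 1.78 CPM and 4.06, 0.281, 0.570, 0.0560 and 0.109 CPM in the same order, with -2.65 (SE 0.90, adjusted p = 0.0334). Groups overlapped for both. Neither call held when the 10 libraries were fitted alone (adjusted p = 0.0772 and 0.0804). The call of ctrb.2 was lost without wild type replicate 1 and without glo1 knockout replicate 4 or 5. That of amy2al2 was lost without wild type replicate 1 or 4 and without glo1 knockout replicate 2, 3, 4 or 5. The trypsin gene prss1 gave -0.27 (adjusted p = 0.564).

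Genes that handle foreign compounds, many of them active in liver and gut, had 49 of 103 members lower and 5 higher, and the median was -0.49. The cytochrome P450 gene cyp2k16 was measured at 12.9, 14.1, 9.52, 10.9 and 13.6 CPM in wild type and 6.59, 8.84, 4.65, 5.23 and 5.28 CPM in the knockout, and fell by 1.0 (SE 0.15, adjusted p = 5.17e-05). Others were cyp3c3 (-1.48, SE 0.22), cyp2y3 (-0.81, SE 0.13), cyp3a65 (-1.25, adjusted p = 0.00399) and the bilirubin-conjugating enzyme gene ugt1a1 (-1.21, adjusted p = 0.00107). The aryl hydrocarbon receptor target cyp1a1 fell by 0.91 (adjusted p = 0.000235), while another target, tiparp, rose by 0.36 (adjusted p = 0.000117).

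Kidney and ionocyte genes had 21 of 58 members lower and 2 higher, and the median was -0.34. The kidney tubule gene pdzk1ip1 was measured at 8.87, 6.48, 6.10, 6.06 and 6.27 CPM in wild type and 3.17, 3.06, 2.51, 2.63 and 3.28 CPM in the knockout, and fell by 1.20 (SE 0.13, adjusted p = 1.5e-06). The sodium pump subunit gene atp1b1 (ENSDARG00000076833) fell by 0.50 (SE 0.08) and the organic cation transporter gene slc22a2 by 0.53 (SE 0.10). Vitamin D, calcium, phosphate and metallothionein genes had 13 of 31 members lower and 3 higher, and the median was -0.22. The vitamin D receptor copy vdr (ENSDARG00000070721) fell by 1.04 (SE 0.18, adjusted p = 0.000157), the vitamin D-activating enzyme gene cyp27b1 by 1.81 (SE 0.32, adjusted p = 0.000215) and the vitamin D carrier gene gc by 1.58 (SE 0.26, adjusted p = 0.000238).

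Muscle genes changed little as a group and in a few members strongly. Of 68 fast muscle genes 14 fell (20.6%) and 6 rose (8.82%), against 18.1% and 14.6% of all genes, and the median was -0.18. Wild type replicate 5 had the lowest mean of the wild type libraries, at -0.31 against 0.00 to 0.13 in the other 4. Of the release channel of muscle calcium stores, the copy ryr1 (ENSDARG00000023797) fell by 0.78 (SE 0.11, adjusted p = 7.01e-05) and the junction protein gene jph1 (ENSDARG00000058603) by 1.18 (SE 0.17, adjusted p = 3.08e-05). The titin cap gene tcap rose by 1.05 (adjusted p = 0.0427), while the troponin gene tnnc2 (0.18, adjusted p = 0.0975) and the muscle creatine kinase gene ckma (-0.13, adjusted p = 0.509) did not pass the test. Among 31 heart genes 8 fell (25.8%) and 3 rose (9.68%). The atrial light chain gene myl7 fell by 0.63 (adjusted p = 0.00457), the natriuretic peptide gene nppa by 1.34 (adjusted p = 0.000311) and the sodium-calcium exchanger gene slc8a1 (ENSDARG00000043406) by 0.75 (SE 0.12, adjusted p = 5.44e-05). In the matrix lists, matn3 of cartilage, matn3 (ENSDARG00000069265), fell by 0.94 (SE 0.12), fibronectin fn1 (ENSDARG00000006526) by 0.81 (SE 0.11) and the caveola gene cavin1 (ENSDARG00000059362) by 0.98 (SE 0.13). The cartilage list as a whole had 10 of 39 lower (25.6%) and 6 higher (15.4%).

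Synapse genes fell more often than they rose. Of 84 tested, 27 fell (32.1%) and 11 rose (13.1%), against 18.1% and 14.6% of all genes, and the median was -0.06. The inhibitory receptor subunit gene gabra3 (-1.61, adjusted p = 0.000295), the kinase gene camk2a (-0.76, adjusted p = 0.000291) and both copies of the calcium sensor gene syt2, syt2 (ENSDARG00000014169) (-1.73) and syt2 (ENSDARG00000025206) (-1.64), fell. Among those that rose, the synaptotagmin gene syt5b went from 224 ± 15.8 to 328 ± 21.7 CPM, a rise of 0.55 (SE 0.06, adjusted p = 1.36e-06). The myelin gene mag fell by 0.75 (SE 0.10, adjusted p = 2.41e-05), while its list had 7 of 35 higher (20%) and 8 lower (22.9%). Both copies of otof, the calcium sensor of hair cells, fell, otof (ENSDARG00000030832) by 0.65 (SE 0.11, adjusted p = 0.000199).

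The pathways named in the series title come next. In the glyoxalase, dicarbonyl and aldehyde list, 12 of 34 genes fell (35.3%) and 3 rose (8.82%), against 18.1% and 14.6% of all genes. The median was -0.15. Beside glo1, the next enzyme of the pathway, hagh, was measured at 27.8, 26.1, 25.4, 30.5 and 28.6 CPM in wild type and 27.6, 30.96, 28.8, 28.01 and 27.5 CPM in the knockout, with a log2 fold change of 0.05 (adjusted p = 0.687). The groups overlapped. The repair enzyme gene park7 gave -0.17 (adjusted p = 0.0941), the related glod4 -0.13 (adjusted p = 0.392) and the fructosamine kinase gene fn3krp fell by 0.53 (adjusted p = 0.0103). Aldose reductase copies akr1b1 (ENSDARG00000006215) and akr1b1 (ENSDARG00000045598) fell by 0.48 and 0.47. Of the aldehyde dehydrogenases, aldh8a1 (-0.69), aldh4a1 (-0.57) and aldh3a2b (-0.49) fell, aldh1a3 rose (0.31), and the abundant aldh7a1 (-0.10, adjusted p = 0.217) and aldh2.2 (-0.04, adjusted p = 0.745) did not pass the test.

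Glutathione and thioredoxin genes had 16 of 56 members lower (28.6%) and 6 higher (10.7%), against 18.1% and 14.6% of all genes. The malic enzyme gene me1, a source of NADPH, fell from 4.62 ± 0.996 to 1.17 ± 0.550 CPM, by 1.97 (SE 0.28, adjusted p = 3.1e-05), and the glutathione transferase gene gsta.1 by 0.86 (adjusted p = 0.000718). The rate-limiting enzyme of glutathione synthesis gclc gave 0.06 (adjusted p = 0.589), and the antioxidant response genes nqo1 and hmox1 gave -0.24 (adjusted p = 0.0513) and -0.08 (adjusted p = 0.854). The cystine importer gene slc7a11 rose by 0.43 (adjusted p = 0.0267).

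Of 55 genes of the constitutive proteasome and its regulators, 6 rose and 4 fell, fewer in each direction than the 14.6% and 18.1% of all genes, and the median was 0.03. The regulatory subunit gene psmd2 (ENSDARG00000103190) fell from 32.4 ± 4.82 to 17.4 ± 1.94 CPM, by 0.90 (SE 0.12, adjusted p = 1.58e-05). The transcription factor gene of proteasome recovery, nfe2l1, fell by 0.93 (adjusted p = 0.000524), and the activator gene psme3 rose by 0.28 (adjusted p = 0.0034). Catalytic subunit genes moved by at most small amounts, psmb5 with 0.11 (adjusted p = 0.192), psmb6 with 0.16 (adjusted p = 0.0176) and psmb7 with 0.09 (adjusted p = 0.198).

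In glucose metabolism, 7 of 40 glycolysis genes rose and 7 fell (17.5% each, against 14.6% and 18.1% of all genes), and the median was 0.02. Those that fell included forms used in liver, the glucokinase gene gck (-1.29, adjusted p = 0.0408) and the pyruvate kinase gene pklr (-0.70, adjusted p = 0.0274). Those that rose included eno1 (ENSDARG00000013750) (0.38, SE 0.06, adjusted p = 0.000105) and the regulator gene pfkfb3 (0.45, adjusted p = 0.0281). Genes of glucose production and glycogen handling had 15 of 41 members lower (36.6%) and 2 higher (4.88%), and the median was -0.19. The glucose-6-phosphatase gene g6pc1a.1 fell by 1.45 (adjusted p = 0.00152) and fbp1b by 0.85 (adjusted p = 0.00268), while pck1 gave -0.51 (adjusted p = 0.0514). Fat burning and ketone genes had 18 of 39 members lower and none higher, and the median was -0.16, with the smallest adjusted p for oxct1b (-1.18, SE 0.19, adjusted p = 9.15e-05).

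Insulin signalling and glucose transporter genes had 15 of 51 members lower (29.4%) and 6 higher (11.8%), against 18.1% and 14.6% of all genes. The insulin-like growth factor carrier igfbp2 (ENSDARG00000052470) fell by 0.44 (SE 0.08, adjusted p = 0.00021), and the liver and islet glucose transporter gene slc2a2 by 0.58 (adjusted p = 0.0371). Among islet and gut hormone genes 12 of 42 fell (28.6%) and 10 rose (23.8%). The insulin gene ins was measured at 7.44, 4.32, 2.12, 4.06 and 3.37 CPM in wild type and 1.83, 2.67, 1.94, 2.74 and 2.95 CPM in the knockout, and fell by 0.81 (SE 0.25, adjusted p = 0.0155), with overlapping groups. The islet factor gene pdx1 fell by 0.69 (adjusted p = 0.00356), and the glucagon gene gcga gave -0.21 (adjusted p = 0.399).

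Of 75 endothelial genes, 14 fell (18.7%) and 8 rose (10.7%), near the shares over all genes, and the median was -0.06. The pan-endothelial genes kdrl (-0.05, adjusted p = 0.663) and cdh5 (0.13, adjusted p = 0.151) did not pass the test. The angiopoietin receptor gene tek was measured at 8.66, 6.25, 7.35, 8.87 and 10.3 CPM in wild type and 12.1, 13.5, 15.1, 16.5 and 12.6 CPM in the knockout, and rose by 0.75 (SE 0.12, adjusted p = 0.000108). The vascular flow factor gene klf2a rose as given above, tie1 fell by 0.34 (adjusted p = 0.00772) and nrp1b by 0.75 (adjusted p = 0.000263). Macrophage and neutrophil genes had 11 of 60 members lower (18.3%, near the 18.1% of all genes) and 1 higher, with the macrophage growth factor receptor gene csf1ra lower by 0.85 (SE 0.22, adjusted p = 0.00441).

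Further large changes were found in single genes. The sarcomeric actin gene actc1c was measured at 108, 107, 93.8, 99.5 and 36.6 CPM in wild type and 1.22, 0.898, 0.513, 0.644 and 0.793 CPM in the glo1 knockout, a fall of 6.76 (SE 0.37, adjusted p = 1.33e-08). Wild type replicate 5 was well under the other 4 but still far above every knockout library. The near-identical actc1a rose by 0.84 (adjusted p = 0.00151) and actc1b gave -0.07 (adjusted p = 0.781), so the fall was limited to 1 of these 3 copies as far as reads can tell them apart. One copy of the Hsp90 activator gene, ahsa1 (ENSDARG00000028664), was measured at 5.33, 6.20, 6.31, 5.69 and 2.58 CPM in wild type and 0.361, 0.786, 0.712, 0.811 and 0.930 CPM in the knockout, and fell by 2.85 (SE 0.25, adjusted p = 6.29e-08). One copy of the prohormone convertase chaperone gene, scg5 (ENSDARG00000077045), fell by 2.57 (SE 0.35, adjusted p = 4.82e-05) while the other rose by 0.83. The D-aspartate oxidase gene ddo fell by 2.13 (SE 0.25, adjusted p = 6.79e-06), the RNA-binding a1cf by 2.09 (SE 0.39, adjusted p = 0.000736), ecrg4 (ENSDARG00000088717) by 2.02 (SE 0.22) and the helicase gene ddx43 by 1.89 (SE 0.23). The antiviral kinase gene eif2ak2 fell by 3.34 (SE 0.43, adjusted p = 1.18e-05) from 2.01 ± 0.638 CPM. Its interferon list had 4 of 39 higher (10.3%) and this 1 lower (2.56%), against 14.6% and 18.1% of all genes.

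Among rises, fkbp15a was measured at 1.17, 1.54, 2.70, 0.910 and 1.71 CPM in wild type and 7.95, 7.44, 6.61, 6.71 and 7.49 CPM in the knockout, and rose by 2.17 (SE 0.21, adjusted p = 7.77e-07). The lysosomal protease gene ctsb was measured at 5.03, 12.3, 18.4, 2.94 and 7.28 CPM and 53.6, 35.4, 30.6, 23.4 and 35.4 CPM in the same order, and rose by 1.96 (SE 0.38, adjusted p = 0.00122). The groups did not overlap for either gene, which the rule that named them required, and ctsb varied widely within wild type. Further rises were fam167a (ENSDARG00000103248) (1.42, SE 0.17) and iqcc (1.39, SE 0.15). A 5.8S ribosomal RNA gene (ENSDARG00000111902, 5_8s_rrna) was called with 1.66 (SE 0.52, adjusted p = 0.0213), a transcript that an mRNA library keeps only in part, and its call was lost without wild type replicate 1 and without wild type replicate 4. The antizyme gene oaz1, which limits polyamines, had a small but even rise of 0.57 (SE 0.05, adjusted p = 4.06e-08), from 216 ± 4.68 to 320.0 ± 17.01 CPM.

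The same gene was also removed on the aldh3a1 knockout background, in libraries that share nothing with the first pair. There, 5039 of 22234 genes were called (22.7%), 2458 higher (11.1%) and 2581 lower (11.6%). The effect of glo1 loss differed between backgrounds for 7905 genes (35.6%) by the test of the difference. Of the 7286 genes called in the glo1 knockout against wild type, 610 were called the same way on the other background (8.37%) and 1328 the opposite way (18.2%), which is 5.97% of all genes tested. Across genes, the log2 fold changes of the pairs had a Pearson r of -0.04 and a Spearman rho of -0.17, a description over genes, which are not independent replicates.

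Most calls did not carry over. Of the 3253 rises, 389 (11.96%) were called higher again and 759 (23.3%) lower, against 11.1% and 11.6% of all genes on the second background. The 389 are 1.75% of all genes tested. Of the 4033 falls, 221 (5.48%) were called lower again and 569 (14.1%) higher. The 236 rises of at least 1 were called higher again in 98 instances (41.5%) and lower in 6 (2.54%). The 746 falls of at least 1 were called lower again in 33 (4.42%) and higher in 78 (10.5%). The difference between backgrounds was called for 567 (76.0%). That difference holds the same libraries by which these falls were chosen, so its share can be raised by the choice. The glo1 transcript itself fell by 4.19 in both pairs.

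Lens genes rose on both backgrounds. Of the 88 in the 3 lists, 64 rose and 2 fell without aldh3a1, 59 rose in both pairs, and the difference was called for 14, with a median of 0.83 beside 1.02. Of all genes, 11.1% rose and 11.6% fell without aldh3a1, 1.75% rose in both pairs, and the difference was called for 35.6%. All 14 alpha and beta crystallins that rose did so in both pairs, and the difference was called for 1 of 16. For grifin the second rise was 0.91 (SE 0.11, adjusted p = 3.56e-06; difference -0.05, adjusted p = 0.806), and for cryba1 1.28 (SE 0.21, difference -0.06, adjusted p = 0.894). The summed level of the 88 genes lay between 10373 and 16843 CPM in the aldh3a1 knockout and between 23122 and 26952 CPM in the double knockout. The 14 with a called difference were 7 gamma crystallins, 6 genes of the list of membrane, cytoskeleton and regulators, and 1 alpha or beta crystallin. Among them, crygm2d17 had -0.24 on the second background (difference -1.52, SE 0.34, adjusted p = 0.00286). The 2 that fell there were copies of the eye field factor gene six3, six3 (ENSDARG00000054879) with 0.37 and then -0.33, and six3 (ENSDARG00000058008) with 0.29 and then -0.52.

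Immediate early genes also rose in both pairs in 15 of 60 cases (25%, against 1.75% of all genes). On the aldh3a1 background 21 were higher and 3 lower, where 11.1% and 11.6% of all genes were, and the median was 0.23. The gene dusp1 rose by 0.91 there (SE 0.09, adjusted p = 3.57e-07; difference 0.18, adjusted p = 0.265). The genes gadd45b (ENSDARG00000027744), mcl1b, cebpb and tek rose by 1.20, 0.92, 0.95 and 0.96, and the differences between backgrounds were not called (adjusted p = 0.177, 0.676, 0.897 and 0.37). Lower in both pairs were, among other genes, eif2ak2, with -3.34 and -2.05, and otof (ENSDARG00000030832), with -0.65 and -0.58. So were pdzk1ip1, with -1.204 and -0.5013 (second pair adjusted p = 0.00846), and cyp2k16, with -0.9986 and -0.4798 (adjusted p = 0.028). The difference between backgrounds was called for pdzk1ip1 (0.7024, adjusted p = 0.00559) and not for cyp2k16 (0.5188, adjusted p = 0.0645).

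**Figure D4:**
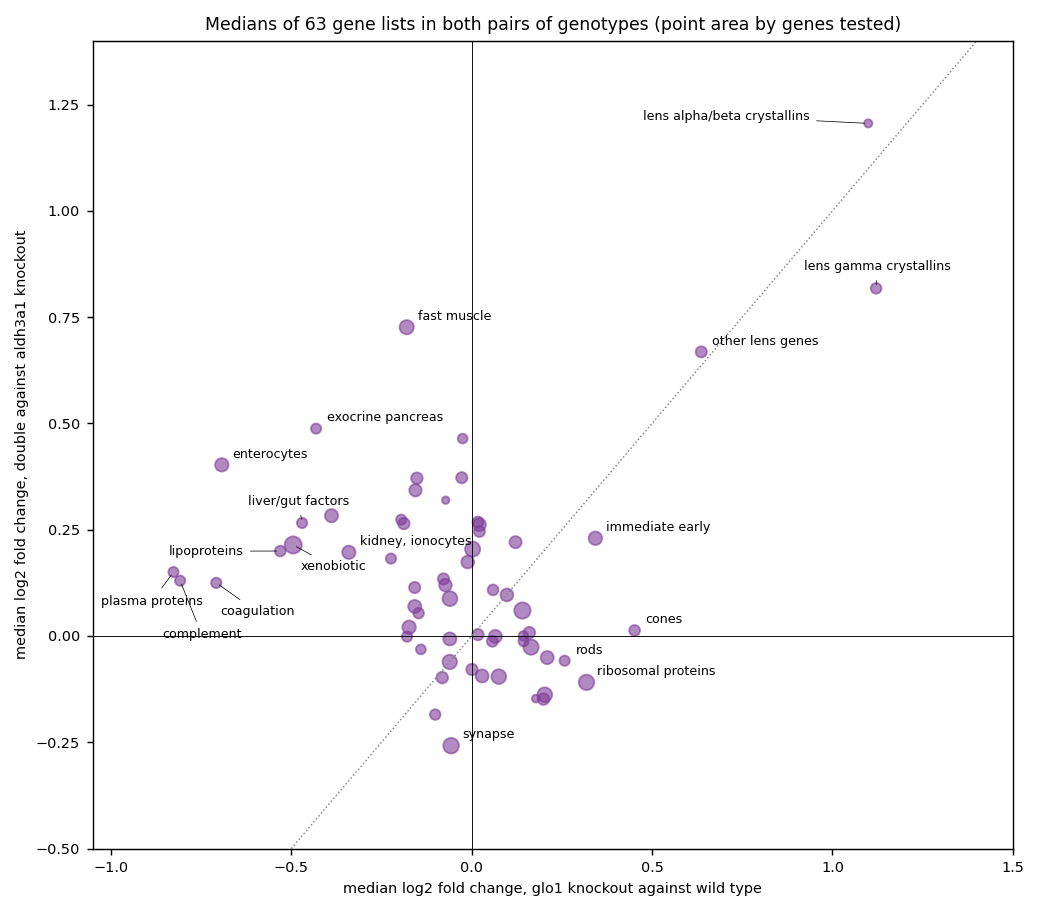
Median log2 fold change of 63 gene lists in glo1 knockout against wild type (horizontal) and in double against aldh3a1 knockout (vertical); point area grows with the genes tested and the dotted line marks equal values. The 3 lens lists and the immediate early genes are above 0 on both axes, while liver and gut lists are below 0 on the horizontal axis only.

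The falls in liver and gut were not repeated. Of the 184 genes in the liver lists, 3 fell and 26 rose on the aldh3a1 background, where 11.6% and 11.1% of all genes did. In both pairs 1 fell, and the median was 0.19 beside -0.65. The difference was called for 101, but it holds the first pair, whose results were known when the lists were made. For enterocyte genes 7 rose and 1 fell, and the median was 0.40 beside -0.69. The difference was called for 34 of 59, with the same limit. The aldh3a1 knockout itself was already low. The summed liver level lay between 4118 and 5889 CPM there and between 5328 and 6715 CPM in the double knockout, beside 5886 to 6501 CPM in the glo1 knockout. The fibrinogen gene fgg had 5.08 ± 1.87 CPM in the aldh3a1 knockout and 4.45 ± 0.769 CPM in the double knockout, with a difference of effects of 1.62 (SE 0.37, adjusted p = 0.00292). All 3 knockout genotypes are read here against the same 5 wild type libraries, whose sum lay between 6813 and 11864 CPM, so a change in each knockout and a property of these wild type libraries cannot be told apart.

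Ribosomal, cone and rod genes did not rise a second time either. Their list means relative to wild type were already 0.65, 0.45 and 0.19 in the aldh3a1 knockout, beside 0.56, 0.48 and 0.17 in the double knockout and 0.32, 0.47 and 0.26 in the glo1 knockout, all on the log2 scale and all read against the same wild type libraries. Of 81 cytosolic ribosomal protein genes, 1 rose and 16 fell on the aldh3a1 background, and the difference was called for 72. For rpl9 the effects were 0.41 and -0.30, with a difference of -0.71 (SE 0.08, adjusted p = 1.39e-06). For gnb3 they were 0.68 and -0.17 (difference -0.86, adjusted p = 7.42e-05). For rlbp1a they were 0.68 and -0.38 (second pair adjusted p = 8.69e-05). Retinal and neural progenitor genes had 3 of 42 higher and 12 lower on the aldh3a1 background, against 11.1% and 11.6% of all genes. Their median was -0.15 beside 0.20, and the difference was called for 22. Fast muscle went the other way, with 58 of 68 genes higher and none lower, against 11.1% and 11.6% of all genes. Its median was 0.73 beside -0.18, and the difference was called for 56. The aldh3a1 knockout was the low group here, with a list mean of -1.06 relative to wild type and 5.79% of counts in these genes. The double knockout had -0.38 and 8.68%, and wild type had 9.98%. The actin gene actc1c had 14.3 ± 4.11 CPM in the aldh3a1 knockout and 76.2 ± 16.3 CPM in the double knockout, so its effects were -6.76 and 2.41, with a difference of 9.17 (SE 0.47, adjusted p = 8.63e-09). The copies ahsa1 (ENSDARG00000028664) and scg5 (ENSDARG00000077045) turned in the same way, with differences of 4.32 (adjusted p = 1.36e-08) and 3.81 (adjusted p = 1.68e-05). Synapse genes fell more widely on the second background, with 41 of 84 lower and none higher, against 11.6% and 11.1% of all genes. In both pairs 9 fell (10.7%, against 0.994% of all genes). Of the 56 cytosolic chaperone genes, 13 of which rose in the first pair, 1 rose in both pairs (1.79%, near the 1.75% of all genes). The difference was called for 28 of them.

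**Figure D5:**
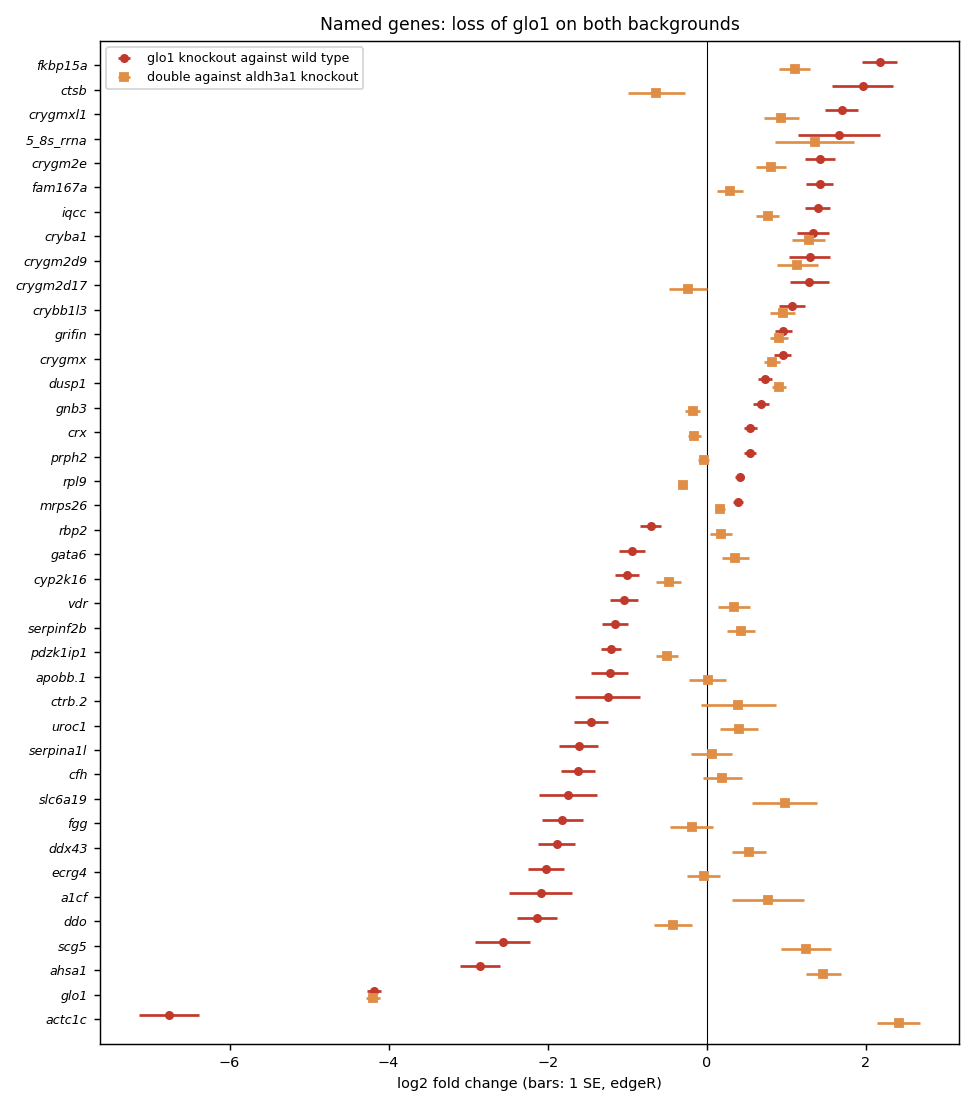
Log2 fold change with 1 SE (bars, edgeR) of 40 named genes for loss of glo1 against wild type (red circles) and against the aldh3a1 knockout (orange squares). The symbols lie close together for glo1, dusp1, grifin, cryba1, crybb1l3, crygmx and crygm2d9. They lie further apart for the gamma crystallins crygm2d17, crygmxl1 and crygm2e. Liver, gut and muscle genes have a red circle below 0 and an orange square near or above it.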

How the data were processed

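RNA of whole larvae was read in 20 libraries, 5 for each genotype, taken from the labels. The authors deposited raw counts, whole numbers for each gene, made with featureCounts 2.0.3 on build GRCz11 according to the submitters' processing notes. Per the labels' protocols, libraries were strand-specific mRNA libraries for DNBSEQ. Aligner, annotation and the use of strand in counting are not given in the sources used here. Overlapping and antisense genes may therefore share reads, as may near-identical copies (crystallins, actins, complement, digestive enzymes). Of 32520 gene IDs, 29201 had a symbol, and 6314 shared one with another ID. Those are printed with their ID. Neighbouring genes and synonyms came from a RefSeq table of assembly GRCz12tu.

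All 20 libraries were fitted with edgeR 4.0.16 (R 4.3.3), with genes kept by filterByExpr (99.97% of counts), TMM scaling, robust quasi-likelihood F-tests (two-sided) and Benjamini-Hochberg adjustment over all 22234 genes, called at 0.05. Libraries of a group varied with a common biological coefficient of variation of 0.13. Standard errors were taken as the size of the log2 fold change over the square root of F. Levels are TMM-scaled CPM, with a prior count of 1 for log2 CPM in list means. They are not corrected for gene length, so levels are compared between groups and not between genes. In a test on simulated data for glo1 knockout against wild type, with 50 genes changed for each fold size among 22234, 78% of 1.5-fold and 100% of 2-, 3- and 4-fold changes were recovered, with 11 false calls. The changed genes had a mean above 1 CPM, every gene had a coefficient of variation of 0.13, and all other genes were unchanged. Changes in lower genes or in genes of wider spread were not simulated, so these shares do not apply to them.

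The 63 gene lists and the genes described were chosen with earlier results of these data known, so their tests are not independent evidence. Of the listed symbols 1935 matched exactly, 137 by synonym and 487 by the stem of the name without a paralog suffix, and 182 had no match. Named by rule were glo1 and the 10 called genes of largest change each way that had at least 5 CPM and no overlap of groups. Genes with only a clone-like name were left out of these. In lists whose median was at least 0.2 from 0, the rule took the 3 smallest adjusted p among called genes that moved with the median. Such genes therefore share the direction of their list by choice. In other lists with at least 5 called genes it took 1, in either direction. Genes beyond these were picked from the lists for their known role, with their values in view. The alternatives were other scaling (RLE, upper quartile), no filter or a stricter one, DESeq2 1.42.0, limma-voom 3.58.1 with quality weights, no robust estimation, a replicate block, the 10 libraries alone, and leaving out each library. Figures were drawn with matplotlib 3.10.9. Sequences were not used here. Some genes are not reported here.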

Additional observations from a re-analysis of the deposited data

Results flagged for a closer look

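Single libraries stood apart from the other 4 of their group in 11 of 226 groups of 5 examined with Dixon's test (critical value 0.71), where chance gives about 5%. In wild type replicate 5, actc1c had 36.6 CPM against 93.8 to 108 in the others, and ahsa1 (ENSDARG00000028664) had 2.58 CPM against 5.33 to 6.31. Wild type replicate 1 was high for pdzk1ip1 (8.87 CPM against 6.06 to 6.48), vdr (ENSDARG00000070721) (6.96 CPM against 5.16 to 5.58) and cyp27b1 (5.77 CPM against 1.47 to 2.37). Wild type replicate 4 was high for rpl39, at 925 CPM against 771 to 814. In the glo1 knockout, replicate 4 was high for scg5 (ENSDARG00000077045) (2.32 CPM against 0.723 to 0.985) and plg (19.5 CPM against 13.7 to 14.96). Replicate 1 was high for amy2al2 (4.06 CPM against 0.0560 to 0.570), replicate 2 for uroc1 (3.34 CPM against 2.10 to 2.42) and replicate 3 for rx1 (56.4 CPM against 48.4 to 50.4).

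The effect of glo1 loss differed between the aldh3a1 knockout and the wild type background for 29 of 40 genes whose difference was looked at, by the test of the difference (edgeR, adjusted p between 8.63e-09 and 0.0492). These genes were chosen by their change in the first pair, which is part of the difference, so the share can be raised by the choice. The values that follow are the effect without aldh3a1 minus the effect with it, on the log2 scale. Among genes that fell most, it was 9.17 for actc1c, 4.32 for ahsa1 (ENSDARG00000028664), 3.81 for scg5 (ENSDARG00000077045), 2.86 for a1cf, 2.42 for ddx43, 1.99 for ecrg4 (ENSDARG00000088717) and 1.70 for ddo. In liver genes it was 1.87 for uroc1, 1.81 for cfh, 1.67 for serpina1l, 1.62 for fgg, 1.59 for serpinf2b and 1.23 for apobb.1. In genes of gut, pancreas and kidney it was 2.73 for slc6a19 (ENSDARG00000091560), 1.64 for ctrb.2, 1.38 for vdr (ENSDARG00000070721), 1.30 for gata6, 0.88 for rbp2 (ENSDARG00000093774) and 0.70 for pdzk1ip1. It was negative in genes that had risen, with -2.59 for ctsb, -1.52 for crygm2d17, -1.13 for fam167a (ENSDARG00000103248), -1.07 for fkbp15a, -0.76 for crygmxl1 and -0.63 for iqcc. Of these, fkbp15a, crygmxl1 and iqcc rose again without aldh3a1, by 1.104, 0.938 and 0.7638 (adjusted p = 0.000342, 0.00269 and 0.000575). The others were not called there, with -0.6338 for ctsb, -0.2365 for crygm2d17 and 0.2917 for fam167a (ENSDARG00000103248). In photoreceptor and ribosome genes the difference was -0.86 for gnb3, -0.71 for rpl9, -0.70 for crx (ENSDARG00000011989) and -0.58 for prph2 (ENSDARG00000038018). The calls of crygmxl1 and ctrb.2 lay closest to the threshold (adjusted p = 0.0492 and 0.0487).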

How the results depend on the processing

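No count, named gene or list median at least 0.2 from 0 changed direction under the 19 alternatives run for glo1 knockout against wild type. Medians near 0 did, so they carry no direction. Glycolysis went from 0.02 to -0.01 without glo1 knockout replicate 3, the pigment epithelium from 0.06 to -0.01 without the same library, and the proteasome from 0.03 to -0.004 without wild type replicate 5. The medians of endoplasmic reticulum chaperones, epidermis, cartilage and 6 other lists near 0 changed sign as well. The count of 7286 called genes lay between 6874 (no filter on low counts) and 8408 (limma-voom) across other scalings, filters and tools, and was 7737 with DESeq2 and 7816 when the 10 libraries were fitted alone. The count of genes higher by at least 1 went from 236 to 139 under the stricter filter of 1 CPM in 5 libraries, which by construction leaves out low genes (19450 tested). Leaving out each library in turn gave 5831 to 6978 called genes, with 2583 to 3154 higher and 3248 to 3919 lower, 782 to 1110 with a change of at least 1 (196 to 282 higher, 586 to 854 lower), and -4.24 to -4.15 for glo1. It gave 3479 to 4973 for the double against the aldh3a1 knockout and 6926 to 8417 for the difference of effects. Of 113 named genes, 110 kept their call in glo1 knockout against wild type under each alternative that could test them. The others were ctrb.2, amy2al2 and the 5.8S ribosomal RNA gene, all lost without wild type replicate 1. The complement median lay between -0.93 and -0.58, that of the gamma crystallins between 1.03 and 1.23, and that of exocrine pancreas enzymes between -0.56 and -0.22. Replicate numbers are shared between groups, but the libraries share only a number. Same-number deviations correlated between -0.175 and 0.201, and 2 of 5 knockout libraries correlated best with their own number. With the replicate block, 7097 genes were called, 4878 for the other pair and 7820 for the difference, glo1 gave -4.18, and the call of the 5.8S ribosomal RNA gene was lost (adjusted p = 0.0504). Depth was even, and genes under about 1 CPM had the widest errors.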

Other observations

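Several gene groups not described above had called members, some of them at shares near those over all genes. In the amino acid response list, whose genes follow the transcription factor Atf4, 11 of 30 rose (36.7%) and 4 fell (13.3%). The median was 0.14, and of all genes 14.6% rose and 18.1% fell. The factor genes atf4a and atf4b rose by 0.31 and 0.29 and the amino acid exchanger subunit gene slc3a2 by 0.44, while the secreted glycoprotein copy stc2 (ENSDARG00000102206) fell by 2.04. Polyamine genes had 9 of 26 members higher (34.6%) and 5 lower (19.2%). Of 3 copies of the polyamine acetyltransferase gene sat1, sat1 (ENSDARG00000035652) fell by 1.09 and sat1 (ENSDARG00000095908) rose by 0.49, and sat1 (ENSDARG00000032272) gave 0.24 (adjusted p = 0.0814). Ribosome biogenesis genes had 19 of 80 members higher and none lower, with a median of 0.16, among them tsr3 by 0.32 and ppan by 0.45. In the list of p53 targets and apoptosis genes, 13 of 53 rose (24.5%) and 8 fell (15.1%). The growth arrest genes gadd45a (ENSDARG00000104571) and btg2 rose by 0.75 each, and the caspase gene casp6 fell by 1.09.

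In the list of basement membrane and notochord genes, 14 of 49 fell (28.6%) and 5 rose (10.2%), against 18.1% and 14.6% of all genes. The type IV collagen chains of vessel and gut basement membranes, col4a1 and col4a2, fell by 1.04 and 0.96, and the muscle laminin chain gene lama2 by 1.77. On the aldh3a1 knockout background these 3 genes gave 1.01, 0.88 and 1.28. Inflammation and acute phase genes had 11 of 42 members lower (26.2%) and 7 higher (16.7%), and the members moved in different directions. The cytokine signalling inhibitor copy socs3 (ENSDARG00000025428) rose by 1.27 (adjusted p = 0.0073), and the liver defence peptide gene leap2 fell by 0.96. Fatty acid and triglyceride synthesis genes had 11 of 32 members lower (34.4%) and 4 higher (12.5%), with the smallest adjusted p for the triglyceride synthase gene dgat2 (-1.74, SE 0.28). In autophagy and lysosome genes 19 of 71 fell (26.8%) and 11 rose (15.5%), with the autophagy kinase gene ulk1 lower by 0.64. Pigment cell genes had 8 of 53 higher (15.1%) and 9 lower (17.0%), near the 14.6% and 18.1% of all genes. The channel gene trpm1b, whose cell type in these larvae was not tested, rose by 0.65, and the iridophore purine enzyme gene pnp4a by 0.72.

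In further lists with medians near 0, single genes passed the test. The red cell carbonic anhydrase gene cahz rose by 0.42. Its list had 5 of 37 higher (13.5%) and 3 lower (8.11%), against 14.6% and 18.1% of all genes. The steroid dehydrogenase gene hsd11b1la fell by 0.81 in the stress axis list, with 9 of 36 higher (25%) and 6 lower (16.7%). The desmosome gene dsp (ENSDARG00000076673) fell by 0.60 among 78 epidermis genes, with 10 higher (12.8%) and 15 lower (19.2%), near the shares over all genes. The thymus chemokine gene ccl25a fell by 1.12, the growth hormone receptor gene ghrb by 0.66, the glycogen phosphorylase gene pygb by 0.46 and the sterol sensor gene scap by 0.45.

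Genes near glo1 on its chromosome were also read, in the gene order of assembly GRCz12tu. Of the 25 genes on each side, 36 were tested, and 6 were higher and 9 lower in the glo1 knockout (41.67% called, against 32.8% of all genes). The gene si:dkeyp-2e4.3 was higher by 2.68 (adjusted p = 1.04e-10) and by 1.94 on the aldh3a1 knockout background (adjusted p = 2.82e-08). The gene zbtb8os was higher by 0.73 and 0.81, and btbd9 lower, with -0.20 and -0.28, in the same order. These 3 of the 36 were the neighbours called the same way in both pairs. Of all genes, 1.75% were called higher in each pair and 0.994% lower in each.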
